A study of Mus musculus with 16 samples.

Results

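Cell cycle and DNA replication genes were followed in the ileum of STAM mice, a mouse model of diabetes with steatohepatitis. The set was a list of 33 gene symbols, found by name among the 41740 gene names in the count tables. It was chosen with earlier results of these data known. The set holds 13 genes that act in S phase or its preparation, here called S phase genes, and 20 that act in mitosis. All 33 were measured in all 16 libraries and passed the filter on low counts, which kept 15267 genes. Total RNA of the ileal whole wall, which holds epithelium, immune cells and muscle, was sequenced from male mice on a C57BL/6J background at 20 weeks of age. Every mouse carried floxed alleles of the insulin receptor gene, received a low dose of streptozotocin on day 2 after birth and was fed a high-fat diet that began at 4 weeks of age. Control-STAM-nonINS (n = 4) carried no Cre and received no insulin. Control-STAM-INS (n = 6) had the same genotype and received subcutaneous insulin degludec, a long-acting insulin, from 6 weeks of age. ieIRKO-STAM-INS (n = 6) also received insulin and carried Cre under the Villin promoter, which drives deletion in the intestinal epithelium, so that muscle and immune cells of the wall keep the receptor gene. Each library is labelled as a biological replicate.

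A dividing cell first copies its DNA and then separates the copies. In G1, cyclin D and cyclin E kinases release the E2F transcription factors. Before S phase, ORC, CDC6 and CDT1 load the MCM2 to MCM7 helicase ring onto DNA. Ribonucleotide reductase and thymidylate synthase supply nucleotides. In G2, cyclin B and CDK1 drive entry into mitosis, Aurora and Polo-like kinases and kinesins build the spindle, and the BUB1 and CDC20 proteins time the separation of chromosomes. In the small intestine, division takes place mainly among the stem and transit-amplifying cells of the crypts, and also in lymphocytes of the follicles in the wall.

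The promoters of the S phase and the mitosis members held different letters. Windows of 300 bases, from 250 before to 50 after the start of transcription, came from RefSeq on GRCm38.p6 and covered 28 of the 33 members. The motifs, searched on both strands, were CCAAT, the cell cycle homology element TTTGAA, and the E2F letters TTTCGCGC, TTTGGCGC or TTTCCCGC, whose matches can overlap. E2F letters stood in 46.2% of the 13 windows of S phase members, in 6.25% of the 16 windows of mitosis members and in 1.84% of all 32851 windows. TTTGAA stood in 68.8% of the mitosis windows, 7.69% of the S phase windows and 17.9% of all windows. CCAAT stood in 87.5%, 69.2% and 37.4%, respectively. In the wider lists described below, which hold no members, E2F letters stood in 27.8% of 36 windows of other replication genes and in 8.70% of 46 windows of other mitosis genes. TTTGAA stood in 22.2% and 67.4% of them, so the other replication genes lay above the share of all windows for TTTGAA and the S phase members below it. A match to these short strings is a description of the sequence and not a mapped binding site. The windows of Mcm5 and Mcm6, which encode helicase subunits, are shown for the E2F letters, that of Cdk1 for TTTGAA (it is also the 1 mitosis window with E2F letters, left in lower case here), and that of Rrm2 for its single CCAAT without either of the others. They lie at chr8:75109259-75109558 (Mcm5, plus strand), chr1:128359656-128359955 (Mcm6, minus strand), chr10:69352863-69353162 (Cdk1, minus strand) and chr12:24708004-24708303 (Rrm2, plus strand). Capitals mark those matches, overlapping matches are joined, and each window reads 5′ to 3′ on the strand of its gene.
Mcm5: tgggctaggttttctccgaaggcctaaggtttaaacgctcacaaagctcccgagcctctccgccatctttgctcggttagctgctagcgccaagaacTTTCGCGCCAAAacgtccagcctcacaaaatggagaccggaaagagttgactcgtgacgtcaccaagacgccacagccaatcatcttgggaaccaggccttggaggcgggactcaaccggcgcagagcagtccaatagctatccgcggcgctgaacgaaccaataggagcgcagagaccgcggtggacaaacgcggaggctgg
Mcm6: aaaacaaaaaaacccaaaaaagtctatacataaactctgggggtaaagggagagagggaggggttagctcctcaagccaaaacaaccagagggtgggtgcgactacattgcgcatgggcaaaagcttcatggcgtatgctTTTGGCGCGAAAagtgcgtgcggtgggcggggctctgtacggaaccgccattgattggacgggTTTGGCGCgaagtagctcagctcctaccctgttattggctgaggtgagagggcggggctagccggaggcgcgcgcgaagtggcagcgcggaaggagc
Cdk1: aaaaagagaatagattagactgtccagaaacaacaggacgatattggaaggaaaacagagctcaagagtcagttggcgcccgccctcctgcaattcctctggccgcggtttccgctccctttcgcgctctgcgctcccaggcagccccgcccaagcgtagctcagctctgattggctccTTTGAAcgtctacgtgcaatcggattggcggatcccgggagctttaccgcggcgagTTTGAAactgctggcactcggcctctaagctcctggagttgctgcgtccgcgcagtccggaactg
Rrm2: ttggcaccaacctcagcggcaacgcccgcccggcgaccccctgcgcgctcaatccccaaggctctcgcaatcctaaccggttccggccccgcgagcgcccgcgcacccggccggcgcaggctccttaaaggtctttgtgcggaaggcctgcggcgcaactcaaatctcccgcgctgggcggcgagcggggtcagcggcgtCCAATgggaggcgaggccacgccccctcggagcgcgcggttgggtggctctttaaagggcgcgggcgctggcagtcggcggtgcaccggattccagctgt

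Between 13288018 and 22215382 reads were counted per library, and the members held from 38 reads (Ccne1) to 2567 reads (Top2a) in a library. Levels are given as CPM, the reads of a gene per 1000000 reads after normalization of library size. Insr, the targeted gene, was at 57.5 to 90.4 CPM in libraries with the label ieIRKO-STAM-INS against 49.9 to 76.1 CPM in Control-STAM-INS, so it was not lower (log2 fold change 0.10, SE 0.13, adjusted p = 0.805 from edgeR), and the group is named here by its label. Control-STAM-nonINS had 88.3 to 116 CPM. Among the ieIRKO-STAM-INS libraries, replicates 2 and 3 stood apart. Their summed markers of B cells (6 genes, among them Cd79a and Ms4a1) reached 468 and 263 CPM, while the other 4 libraries of the group lay between 25.5 and 55.3 CPM and the 10 control libraries between 19.5 and 32.9 CPM. Replicate 2 also had the highest sum of germinal centre markers (61.7 CPM against 18.8 to 33.4 CPM in the other 15 libraries). Myeloid markers summed to 281 and 288 CPM in replicates 2 and 3 and to 105 to 164 CPM in the other 4 libraries of the group, and T cell markers to 54.5 and 57.6 CPM against 23.1 to 38.8 CPM. Counts of calls that include these mice are therefore also given without them. In whole tissue, fewer dividing cells and less RNA per cell cannot be told apart.

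Per length of exon, Pcna, the sliding clamp of DNA polymerase, was the most abundant member, with 38.6 CPM per kb on average over the 16 libraries. Cdc20 (21.7 CPM per kb) and Ccnb2 (19.8 CPM per kb), an activator of the anaphase-promoting complex and a mitotic cyclin, came next. The proliferation marker Mki67 had 11.4 CPM per kb and Top2a, the topoisomerase that untangles replicated DNA, had 12.7 CPM per kb. At the other end stood Cdc6 with 1.37 and Cenpf with 1.41 CPM per kb. Of the subunits of the helicase ring, Mcm3 (7.45), Mcm4 (7.70), Mcm5 (8.24), Mcm7 (10.2) and Mcm6 (11.9 CPM per kb) lay above Mcm2 (4.06 CPM per kb). The exons of Ccna2, Kif20a, Cdc20, Nusap1 and Mcm7 overlap those of tested genes on the opposite strand (Exosc9, Cdc23, Elovl1, Oip5, and Ap4m1 and Cops6), and since the use of strand in the counting is not given in the sources used here, reads of these pairs may not be told apart.

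The mitosis genes did not pass the test in any of the 3 comparisons. The test was edgeR's quasi-likelihood test with Benjamini-Hochberg adjustment over all 15267 genes. With insulin in the control genotype, 0 of 20 had an adjusted p under 0.05, beside 10.5% of all genes. Between the genotypes under insulin 0 of 20 did, beside 0.223%. Between ieIRKO-STAM-INS and Control-STAM-nonINS 0 of 20 did, beside 13.3%. At an unadjusted p under 0.05 the counts were 4, 0 and 3 of 20, against 25.4%, 11.3% and 29.4% of all genes tested. DESeq2 called 1 (Ccna2), 0 and 2 (Ccna2 and Birc5), for which the share of all genes was not computed. With the replicate number as a block, Ccna2, Aurka and Plk1 were called with insulin. The median log2 fold change of the 20 genes was 0.16, 0.00 and 0.10, beside medians of 0.00, 0.02 and 0.01 over all genes.

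**Figure D1:**
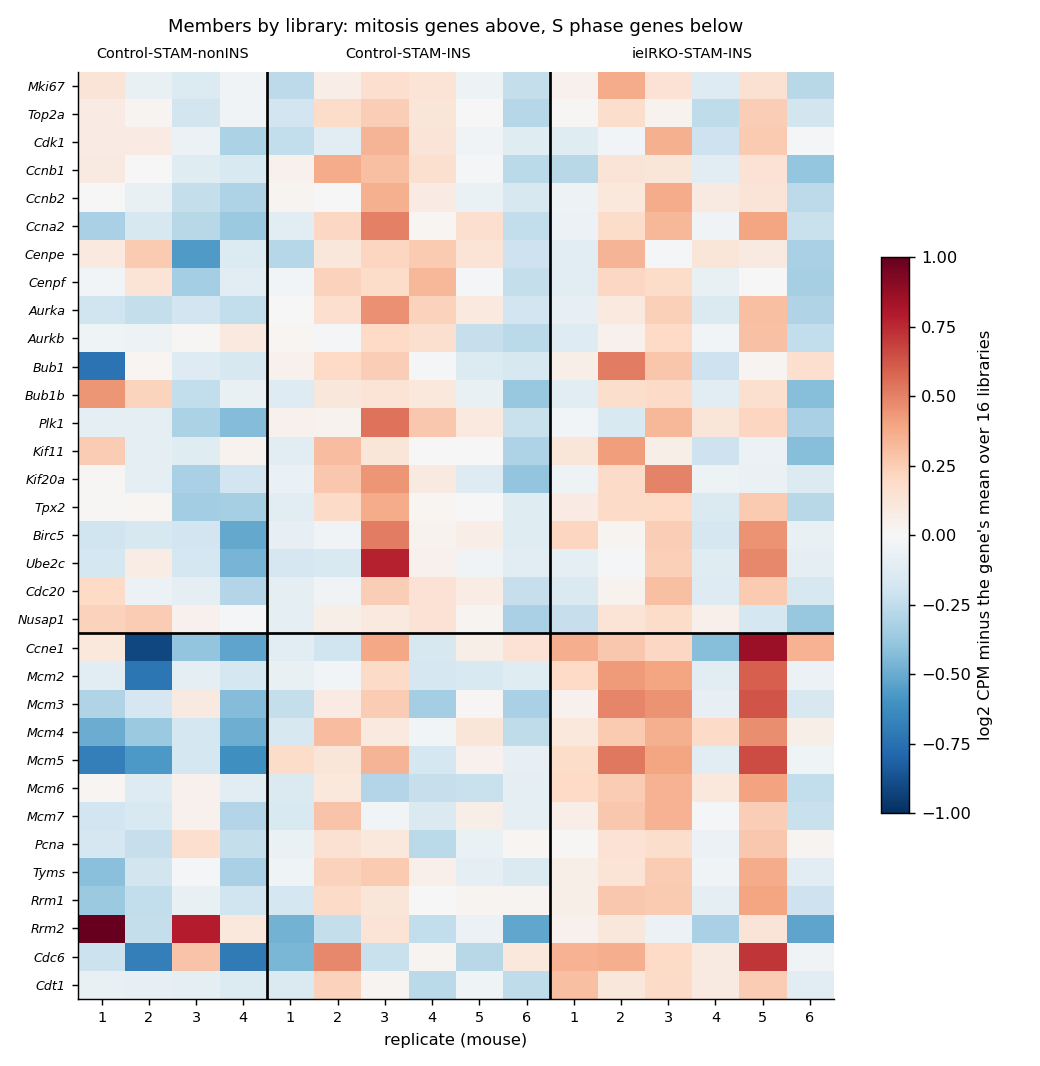
Level of each member in each library, as log2 CPM minus the mean of that gene over the 16 libraries (colour, which stops at 1 and -1), with mitosis genes above and S phase genes below the black line and the groups side by side. Red cells gather in the S phase rows of ieIRKO-STAM-INS replicates 2, 3 and 5, and Rrm2 is the row that is highest in Control-STAM-nonINS replicates 1 and 3.

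Mki67, which marks cells in cycle, was at 124, 108, 103 and 111 CPM in the Control-STAM-nonINS mice. It was at 94.996, 115 and 128 CPM (lowest, median and highest) in Control-STAM-INS and at 93.7, 121 and 147 CPM in ieIRKO-STAM-INS. The ranges of the 3 groups overlapped. The log2 fold change was 0.01 (95% confidence interval -0.23 to 0.24) with insulin and 0.08 (-0.12 to 0.29) between the genotypes. Top2a gave the same picture, with 120, 116, 99.9 and 111 CPM without insulin, 93.2, 118 and 135 CPM with insulin and 95.2, 116 and 135 CPM in ieIRKO-STAM-INS.

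Among the genes of mitotic entry, Cdk1, the kinase that starts mitosis, was at 30.3, 30.3, 27.5 and 23.0 CPM without insulin, at 24.2, 27.3 and 36.4 CPM in Control-STAM-INS and at 24.9, 28.2 and 36.8 CPM in ieIRKO-STAM-INS. Its partner cyclin Ccnb1 had 22.9, 21.5, 19.8 and 19.4 CPM, then 17.9, 23.1 and 27.9 CPM, and 16.5, 21.7 and 23.9 CPM. It had the lowest log2 fold change of the mitosis genes between the genotypes, -0.16 (SE 0.12, adjusted p = 0.641, edgeR). Ccna2, the cyclin of late S phase and G2, had the highest one with insulin. Its levels were 46.6, 52.1, 48.2 and 45.1 CPM without insulin and 49.0, 62.3 and 82.6 CPM with it, a log2 fold change of 0.39 (SE 0.14, adjusted p = 0.0765, edgeR). In ieIRKO-STAM-INS Ccna2 was at 49.997, 61.7 and 76.6 CPM, 0.40 above Control-STAM-nonINS on the log2 scale (SE 0.14, adjusted p = 0.0614, edgeR). With DESeq2 the adjusted p of these differences was 0.0458 and 0.0397.

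For most kinases, motors and checkpoint genes of the spindle the groups overlapped. Aurkb, the kinase of the chromosomal passenger complex, was at 19.2, 19.1, 19.967 and 21.1 CPM without insulin, at 16.4, 19.8 and 22.8 CPM with it and at 16.7, 19.9 and 24.2 CPM in ieIRKO-STAM-INS. Kif11, the motor that pushes the spindle poles apart, had 33.8, 26.7, 26.2 and 29.2 CPM, then 23.0, 28.5 and 35.2 CPM, and 21.2, 28.5 and 37.9 CPM. Its log2 fold changes in the 3 comparisons were -0.01, 0.00 and -0.02. For Cdc20 the levels were 46.0, 38.6, 37.5 and 32.7 CPM, then 34.1, 40.7 and 47.6 CPM, and 36.0, 38.9 and 49.3 CPM. Bub1, a checkpoint kinase at the kinetochore, was at 5.29, 8.94, 8.05 and 7.87 CPM without insulin, at 7.86, 8.91 and 10.4 CPM with it and at 7.62, 9.53 and 12.5 CPM in ieIRKO-STAM-INS, with the highest log2 fold change of the class between the genotypes, 0.12 (SE 0.14). The 5.29 CPM of Control-STAM-nonINS replicate 1 was the lowest of the 16 values, while Bub1b, a related checkpoint gene, was highest in that same mouse (30.5 CPM). Nusap1, a spindle protein, had the lowest log2 fold change of the class with insulin, -0.14 (SE 0.12), and between ieIRKO-STAM-INS and Control-STAM-nonINS, -0.18 (SE 0.12).

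Aurka, the kinase of the spindle poles, and Birc5, also known as survivin, did not overlap between the control groups. Aurka was at 14.8 to 15.4 CPM in all 4 Control-STAM-nonINS mice and at 15.4 to 24.1 CPM in the 6 Control-STAM-INS mice. Birc5 was at 25.4 to 32.4 CPM and 33.3 to 51.6 CPM. The log2 fold changes were 0.36 (adjusted p = 0.0862) and 0.34 (adjusted p = 0.114, edgeR), so neither gene passed the test. For Aurka the gap between the groups was narrow. Of all genes, 4.40% lay higher in every Control-STAM-INS library than in every Control-STAM-nonINS library, and 2 of the 20 mitosis genes did. The other mitosis members, Bub1b, Ccnb2, Cenpe, Cenpf, Plk1, Kif20a, Tpx2 and Ube2c, had log2 fold changes with insulin between -0.13 and 0.38 and between the genotypes between -0.10 and 0.03, and all had an adjusted p above 0.05.

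**Figure D2:**
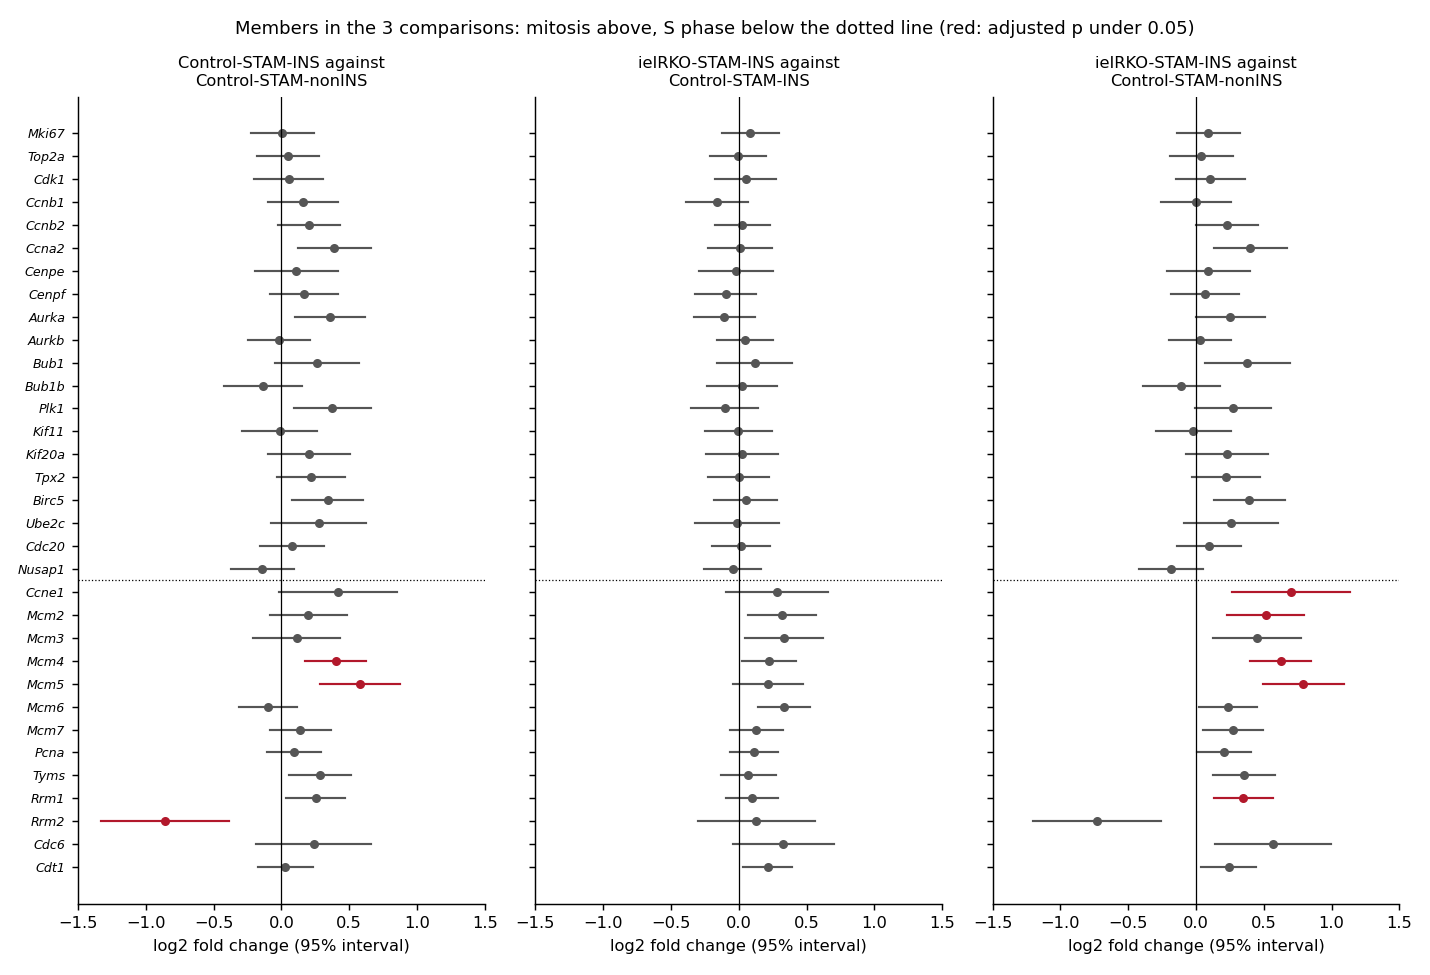
Log2 fold change (points) with its 95% confidence interval (lines) of the 33 members in the 3 comparisons, with an adjusted p under 0.05 in red. The mitosis genes scatter around 0 between the genotypes, all 13 S phase genes lie to the right of 0 there without passing the test, and Mcm5 (0.79) and Ccne1 (0.70) lie farthest from 0 among the genes with red intervals in the comparison on the right.

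In the main edgeR fit the members called were all S phase genes, in total counts near the share of all genes. With insulin in the control genotype, a comparison that asks what insulin treatment changes in the ileum of diabetic mice, 3 of the 33 members passed the test, which is 9.09% beside 10.5% of all genes. All 3 were S phase genes, and 0 members were called without Control-STAM-nonINS replicate 1. Mcm4 and Mcm5 were higher and Rrm2 was lower, so 2 of 33 rose (6.06%) beside 3.73% of all genes, and 1 fell beside 6.76%. The median log2 fold change of the 13 S phase genes was 0.20, and 11 of them lay above 0, beside 49.4% of all genes. The 20 mitosis genes had a median of 0.16 in this comparison, with 16 above 0. Without Control-STAM-nonINS replicate 4 the S phase median was 0.11, and without Control-STAM-INS replicate 2 it was 0.12.

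Mcm5 (chromosome 8, 75109569 to 75128439, plus strand) encodes a subunit of the replicative helicase. It was at 19.8, 21.3, 28.2 and 20.8 CPM in the Control-STAM-nonINS mice, at 28.1, 33.8 and 40.2 CPM in Control-STAM-INS and at 29.4, 39.0 and 49.979 CPM in ieIRKO-STAM-INS. The lowest Control-STAM-INS mouse overlapped with the highest mouse without insulin, and the other 5 lay above it. The log2 fold change with insulin was 0.58 (SE 0.15, adjusted p = 0.0206, edgeR), and exact permutation of the log2 CPM values (two-sided) gave p = 0.00952. Mcm4 (chromosome 16, 15623897 to 15637400, minus strand), another subunit of the ring, was at 19.2, 20.9, 24.0 and 19.3 CPM, then at 22.7, 27.8 and 33.7 CPM, and at 28.2, 31.7 and 37.4 CPM in ieIRKO-STAM-INS. Again 5 of 6 Control-STAM-INS mice lay above all 4 mice without insulin. The log2 fold change was 0.40 (SE 0.12, adjusted p = 0.0332, edgeR), and the exact permutation test gave p = 0.0143. Both calls, though not the direction, rested on Control-STAM-nonINS replicates 1 and 4. When a library was left out, the log2 fold change ranged from 0.52 to 0.71 for Mcm5 and from 0.34 to 0.48 for Mcm4. Without replicate 1 the adjusted p was 0.0782 for Mcm5 and 0.107 for Mcm4, and without replicate 4 it was 0.0608 and 0.0928. Mcm4 also lost its call without Control-STAM-INS replicate 2, 3 or 5 (adjusted p = 0.0660, 0.0599 and 0.0580).

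Rrm2 (chromosome 12, 24708241 to 24714146, plus strand) encodes the small subunit of ribonucleotide reductase, which makes deoxynucleotides. It was at 60.9, 19.8, 40.3 and 25.2 CPM without insulin, at 16.3, 19.8 and 25.8 CPM in Control-STAM-INS and at 16.2, 23.3 and 25.5 CPM in ieIRKO-STAM-INS. The fall lay in Control-STAM-nonINS replicates 1 and 3, and the other 2 mice of that group lay within the range of the insulin-treated mice. The log2 fold change with insulin was -0.86 (SE 0.24, adjusted p = 0.0331, edgeR). Without replicate 1 of Control-STAM-nonINS it was -0.50 (adjusted p = 0.154). Without replicate 3 of that group, or replicate 1, 2, 4 or 6 of Control-STAM-INS, the adjusted p lay between 0.0568 and 0.0838. The call was also lost without a filter on low counts (adjusted p = 0.0587), with only the 2 groups compared in the fit (0.0802) and with the replicate number as a block. In the 2 mice with high Rrm2, its partner Rrm1, the large subunit of the same enzyme, was at 35.1 and 43.3 CPM, the lowest and the highest value of that group.

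**Figure D3:**
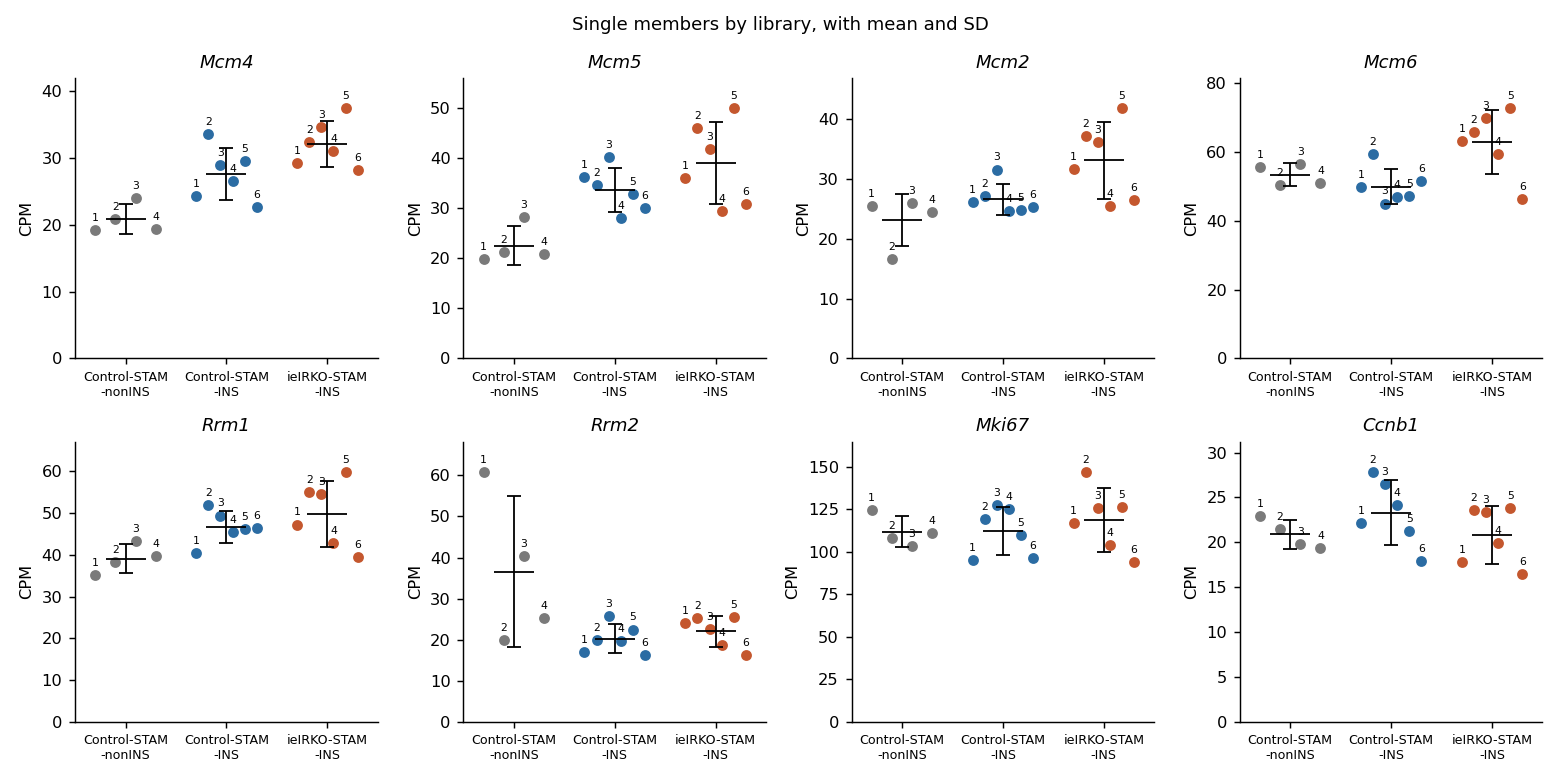
CPM of 8 members in each library (points, numbered by replicate) with the mean and SD of each group (bars), on axes that start at 0. All ieIRKO-STAM-INS mice lie above all Control-STAM-nonINS mice for Mcm4 and Mcm5, Rrm2 is high in 2 Control-STAM-nonINS mice, and the groups overlap for Mki67 and Ccnb1.

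The other S phase genes did not pass the test with insulin. Those of helicase loading, Cdt1 and Cdc6, had log2 fold changes of 0.03 (SE 0.10) and 0.24 (SE 0.22). Mcm6 had a value of -0.10 (SE 0.11), so the ring's subunits ranged from -0.10 to 0.58 on the log2 scale. Pcna was at 82.2, 78.6, 103 and 78.1 CPM without insulin and at 76.6, 90.7 and 103 CPM with it, a log2 fold change of 0.09 (SE 0.10). Replicate 3 of Control-STAM-nonINS held the highest value of its group for 10 of the 13 S phase genes, Pcna among them. Tyms, thymidylate synthase, was at 16.5, 19.4, 21.7 and 17.6 CPM without insulin and at 19.979, 22.1 and 26.5 CPM with it, and missed the threshold with a log2 fold change of 0.28 (SE 0.12, adjusted p = 0.132, edgeR). Mcm2, Mcm3, Mcm7, Rrm1 and Ccne1 had log2 fold changes between 0.11 and 0.42.

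Markers of other cells also differed between these control groups. Of 5 T cell markers, 3 were called higher with insulin (Cd3e, Cd3g and Cd8a), and the sum of all 5 was 13.1 to 23.8 CPM without insulin and 22.8 to 38.1 CPM with it. Of 7 crypt stem cell markers, 1 was called, Sox9, which fell from 32.1 ± 6.86 CPM (SD, n = 4) to 21.5 ± 2.42 CPM (SD, n = 6), while the sum of the 7 was 491 to 716 CPM without insulin and 550 to 755 CPM with it. Of 5 Paneth cell markers Itln1 was called higher. Of 4 plasma cell markers Sdc1 was called lower, while the other 3 lay above 0 (median of the 4 on the log2 scale 0.42). Markers of goblet cells, enterocytes, B cells, germinal centre B cells, myeloid cells, smooth muscle and adipocytes gave 0 calls in edgeR (2, 1, 0, 0, 0, 1 and 0 at an unadjusted p under 0.05) and 0 in DESeq2. Adipocyte markers summed to 40.3 and 144 CPM in Control-STAM-nonINS replicates 1 and 3, the mice with high Rrm2. They summed to 1.33 and 3.28 CPM in replicates 2 and 4, to 0 to 57.0 CPM in Control-STAM-INS and to 0.0616 to 66.9 CPM in ieIRKO-STAM-INS. Of the pancreatic acinar genes, 0 of 5 passed the filter, and outside that list no marker was at 0 in all libraries of a group. Their part in the S phase values was not tested.

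Between the genotypes under insulin, a comparison without an untreated knockout group, so that a genotype difference and a changed response to insulin cannot be told apart, 0 of 33 members passed the test, as did 0.223% of all genes in total. At an unadjusted p under 0.05 there were 5 of 33, beside 11.3% of all genes, and DESeq2 called 0. These 5 were the S phase genes Mcm2, Mcm3, Mcm4, Mcm6 and Cdt1. All 13 S phase genes had a log2 fold change above 0, from 0.07 (Tyms) to 0.34 (Mcm3), with a median of 0.21, while 53.8% of all genes lay above 0 with a median of 0.02. The 13 genes come from the same mice and are not independent observations.

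Mcm6, a helicase subunit, came closest to the threshold. It was at 45.0, 48.5 and 59.3 CPM in Control-STAM-INS and at 46.4, 64.6 and 72.7 CPM in the libraries labelled ieIRKO-STAM-INS, beside 55.8, 50.3, 56.7 and 50.9 CPM in Control-STAM-nonINS. ieIRKO-STAM-INS replicate 6 (46.4 CPM) lay within the range of Control-STAM-INS, and the other 5 lay above all 6 mice of that group, replicate 4 by a narrow margin. The log2 fold change was 0.33 (SE 0.10, 95% confidence interval 0.14 to 0.52, adjusted p = 0.284, edgeR), and the exact permutation test gave p = 0.0281 before any adjustment. Without replicate 6, Mcm6 was called, with 0.41 and an adjusted p of 0.0415. Mcm2 was at 24.6, 25.8 and 31.6 CPM in Control-STAM-INS and at 25.5, 34.0 and 41.8 CPM in ieIRKO-STAM-INS (log2 fold change 0.32, SE 0.13, adjusted p = 0.364). Mcm3 had the highest value of the class, 0.34 (SE 0.15, adjusted p = 0.393), with 21.5, 25.3 and 32.6 CPM against 24.4, 32.7 and 42.2 CPM. The 95% confidence intervals, which are not adjusted for the number of genes, were 0.07 to 0.57 for Mcm2 and 0.05 to 0.62 for Mcm3.

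Within groups, a few mice held the extreme values of most S phase genes. Within ieIRKO-STAM-INS, replicate 5 held the highest value for 11 of the 13 S phase genes and replicate 6 the lowest for 9. Within Control-STAM-INS, replicates 2 and 3 held the highest values for 7 and 6 of the 13. The summed level of the 13 genes was 360 to 454 CPM in Control-STAM-nonINS, 385 to 482 CPM in Control-STAM-INS and 401 to 572 CPM in ieIRKO-STAM-INS, and all ranges overlapped. The mice with extreme mitosis sums were the same as those for the S phase sums in ieIRKO-STAM-INS but not in the control groups. The mitosis sum was lowest in replicate 6 of both insulin-treated groups (604 and 606 CPM) and highest in Control-STAM-INS replicate 3 (888 CPM) and ieIRKO-STAM-INS replicate 5 (826 CPM). Control-STAM-INS replicate 3 held the highest value of its group for 15 of the 20 mitosis genes, and replicate 6 the lowest for 16. Control-STAM-nonINS replicate 3 had the highest S phase sum (454 CPM) and the lowest mitosis sum (624 CPM) of its group.

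**Figure D4:**
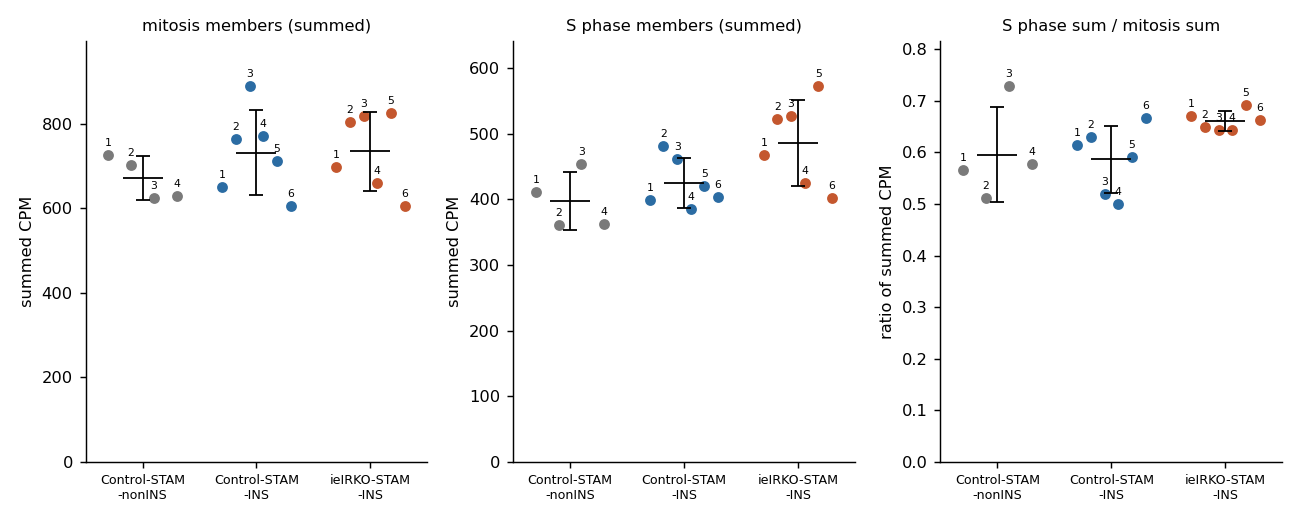
Summed CPM of the 20 mitosis members (left) and the 13 S phase members (middle), and the ratio of the sums (right), in each library (points, numbered by replicate) with the mean and SD of each group (bars). The groups overlap in all 3 panels, and the 6 ieIRKO-STAM-INS mice span the narrowest range of the ratio, 0.644 to 0.692.

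Within each library, the ratio of the S phase sum to the mitosis sum was 0.596 ± 0.0926 (SD, n = 4) without insulin. In Control-STAM-INS it was 0.587 ± 0.0652 (SD, n = 6), and ieIRKO-STAM-INS had 0.661 ± 0.0191 (SD, n = 6). The single values ran from 0.512 to 0.728, from 0.499 to 0.667 and from 0.644 to 0.692. Of the Control-STAM-INS mice, only replicate 6 lay within the range of ieIRKO-STAM-INS, and the Control-STAM-nonINS mice lay on both sides of it. The ratio was examined after the single genes and is given without a test.

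Between the genotypes, edgeR called markers of Paneth cells, the crypt cells that secrete antimicrobial peptides. Of 5, Lyz1, Ang4 and Itln1 fell (Lyz1 and Ang4 without replicates 2 and 3), and the sum of all 5 was 2892 to 4795 CPM in Control-STAM-INS and 774 to 1440 CPM in ieIRKO-STAM-INS. The B cell markers had a larger median log2 fold change (3.45, against -1.36 for the Paneth cell markers). Of 6 B cell markers, 0 passed the adjusted test in edgeR, 6 had an unadjusted p under 0.05 and 6 were called by DESeq2, and replicates 2 and 3 held most of their summed CPM in ieIRKO-STAM-INS. The other marker lists gave 0 calls in edgeR and in DESeq2 (4 plasma cell, 1 T cell and 1 myeloid marker at an unadjusted p under 0.05). Plasma cell markers summed to 1150 to 1730 CPM in Control-STAM-INS and 1485 to 3239 CPM in ieIRKO-STAM-INS, and replicate 5, the mouse with the highest S phase sum, had the highest value. That mouse also had the lowest enterocyte sum, 9399 CPM. Replicates 2, 3, 4 and 6 of its group had 17563, 21368, 19130 and 19034 CPM, and replicate 1 had 35438 CPM. The parts of these cells in the S phase values were not tested. Without replicates 2 and 3, all 13 S phase genes lay above 0, with a median of 0.18 and 0 calls. For the mitosis genes the same step left 1 of 20 above 0 and a median of -0.08, from 10 of 20 and 0.00 with all mice.

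**Figure D5:**
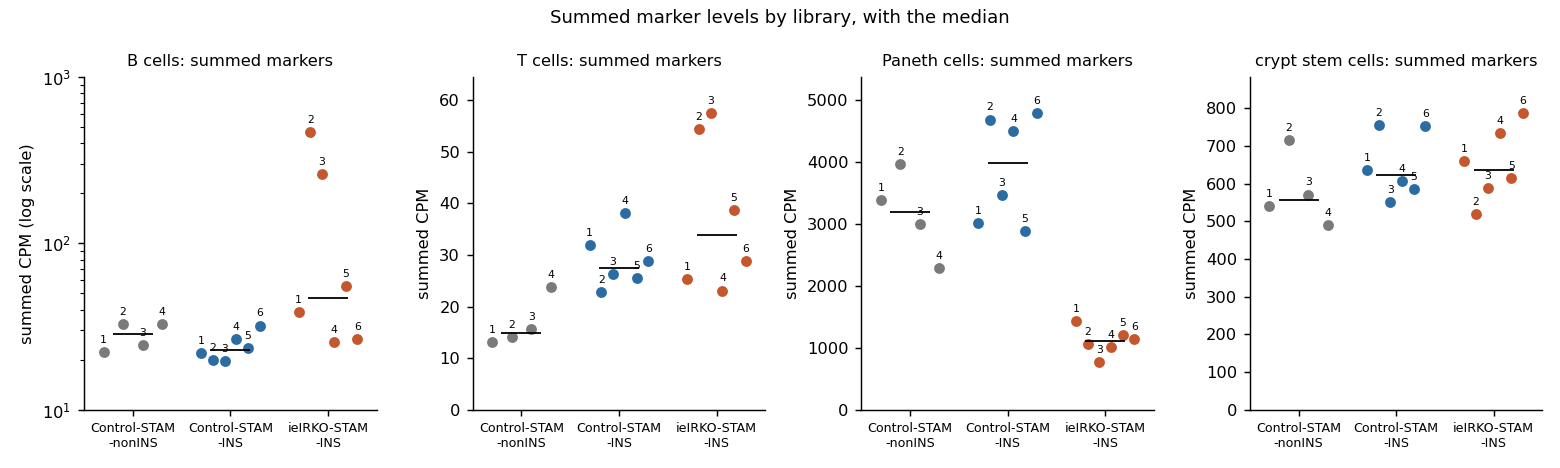
Summed CPM of the markers of B cells (6 genes, log axis), T cells, Paneth cells and crypt stem cells (5, 5 and 7 genes) in each library (points, numbered by replicate) with the median of each group (bar). B cell markers are high in ieIRKO-STAM-INS replicates 2 and 3, Paneth cell markers are low in all 6 ieIRKO-STAM-INS mice, and the crypt stem cell sums overlap between the groups.

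Against Control-STAM-nonINS, the libraries labelled ieIRKO-STAM-INS differ in both genotype and insulin, which cannot be told apart here, and the comparison shares its mice with the other 2. Of the 33 members 5 passed the test, 15.2% beside 13.3% of all genes, and all 5 were higher, beside 5.74% of all genes that were higher. All were S phase genes (Mcm4, Mcm5, Mcm2, Rrm1 and Ccne1). The median log2 fold change of the 13 was 0.35, with Rrm2 as the only gene below 0, and 12 of 13 had an unadjusted p under 0.05, beside 29.4% of all genes (Rrm2, which was lower, is among the 12, and Pcna is not). Without ieIRKO-STAM-INS replicates 2 and 3, 2 of the 33 were called, Mcm4 and Mcm5. The share of all genes called in that fit was not computed. Of the markers, 4 of 5 T cell genes, 3 of 4 plasma cell genes and Cd79a of the B cells were called higher in this comparison, and Sdc1, Sox9, Fabp6 (an ileal enterocyte gene), Lyz1 and Ang4 were called lower, with 0 calls in the other lists. DESeq2 also called all 6 B cell markers, Lyz2, Smoc2 and Zg16. Without replicates 2 and 3, edgeR called the same T and plasma cell genes, Lyz1 and Ang4, and no B cell, crypt stem cell or enterocyte marker. Their part in the S phase values was not tested.

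Mcm4 and Mcm5 were the clearest. Every ieIRKO-STAM-INS mouse lay above every Control-STAM-nonINS mouse for both genes, as was the case for 3.80% of all genes. The log2 fold change of Mcm5 was 0.79 (SE 0.15, adjusted p = 0.00286, edgeR) and that of Mcm4 was 0.62 (SE 0.12, adjusted p = 0.00228, edgeR), which are 1.73-fold and 1.54-fold. Exact two-sided permutation tests gave p = 0.00952 for Mcm5 and p = 0.00476, the smallest that 4 against 6 mice allow, for Mcm4. Both genes passed the test in each of the 8 alternatives run for this comparison, which include leaving out ieIRKO-STAM-INS replicates 2 and 3 together, and in each of the 10 fits that left out a single mouse.

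The other 3 calls were less stable. Mcm2 (chromosome 6, 88883474 to 88898780, minus strand) was at 25.6, 16.7, 26.0 and 24.5 CPM in Control-STAM-nonINS, where replicate 2 lay far below the others, and at 25.5, 34.0 and 41.8 CPM in ieIRKO-STAM-INS. Its log2 fold change was 0.51 (SE 0.15, adjusted p = 0.0262, edgeR). It was 0.40 (adjusted p = 0.0707) without that mouse, and the adjusted p was 0.0523 without ieIRKO-STAM-INS replicate 3 and 0.0915 without replicates 2 and 3. With only the 2 groups compared in the fit it was 0.0857. Rrm1 (chromosome 7, 102441695 to 102469771, plus strand) was at 35.1, 38.3, 43.3 and 39.6 CPM in Control-STAM-nonINS, at 40.4, 46.3 and 52.0 CPM in Control-STAM-INS and at 39.5, 50.9 and 59.9 CPM in ieIRKO-STAM-INS, where the lowest mouse lay within the range of the mice without insulin. Its log2 fold change was 0.35 (SE 0.11, adjusted p = 0.0442, edgeR), and it lost the call in 6 of 10 fits that left out a mouse (replicates 1, 2 and 4 of Control-STAM-nonINS and 2, 3 and 5 of ieIRKO-STAM-INS; adjusted p between 0.0694 and 0.143), and without replicates 2 and 3 of ieIRKO-STAM-INS together (0.154), without a filter on low counts (0.0567) and with only the 2 groups in the fit (0.111). Ccne1 (chromosome 7, 38097984 to 38107534, minus strand), cyclin E1, was at 6.03, 2.98, 4.25 and 3.89 CPM, then at 4.86, 5.50 and 7.31 CPM in Control-STAM-INS and at 4.17, 6.92 and 10.1 CPM in ieIRKO-STAM-INS. Its log2 fold change was 0.70 (SE 0.22, adjusted p = 0.0435, edgeR), and the call was lost in 8 of 10 fits that left out a mouse (adjusted p between 0.0529 and 0.108), all but those without Control-STAM-nonINS replicate 1 or ieIRKO-STAM-INS replicate 4. Without ieIRKO-STAM-INS replicates 2 and 3 together its adjusted p was 0.0714, without a filter 0.0528 and with only the 2 groups in the fit 0.112. The call of Ccne1 was also lost with the replicate number as a block.

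Cdc6, the loader of the helicase ring, was at 5.96, 4.31, 8.45 and 4.24 CPM in Control-STAM-nonINS, at 5.03, 6.49 and 9.65 CPM in Control-STAM-INS and at 6.76, 8.36 and 11.3 CPM in ieIRKO-STAM-INS. It did not pass the test (log2 fold change 0.57, SE 0.22, adjusted p = 0.0874, edgeR). Tyms narrowly missed the threshold, at 20.4, 23.6 and 28.5 CPM in ieIRKO-STAM-INS (log2 fold change 0.35, SE 0.12, adjusted p = 0.0521). Pcna in that group was at 88.6, 98.0 and 111 CPM (log2 fold change 0.21, SE 0.10, adjusted p = 0.181). Rrm2 was again below Control-STAM-nonINS, at -0.73 (SE 0.24, adjusted p = 0.0557). Mcm3, Mcm6, Mcm7 and Cdt1 had log2 fold changes between 0.24 and 0.45 and an adjusted p above 0.05.

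Genes of the same pathways outside the 33 were taken from 4 lists, all of whose genes passed the filter. Of 38 other replication genes, 2 rose with insulin (5.26%, beside 3.73% of all genes), among them Orc1, 0 passed between the genotypes (1 at an unadjusted p under 0.05, beside 11.3% of all genes, and 0 with DESeq2), and 6 rose between ieIRKO-STAM-INS and Control-STAM-nonINS (15.8%, beside 5.74% of all genes). With insulin, Orc1 was the 1 gene called without Control-STAM-nonINS replicate 1 or without its replicate 4. Orc1, a subunit of the origin recognition complex, was at 1.18 to 1.71 CPM without insulin, at 1.97 to 4.08 CPM in Control-STAM-INS and at 2.38 to 4.00 CPM in ieIRKO-STAM-INS, without overlap in either comparison with the mice that had no insulin. Also called between ieIRKO-STAM-INS and Control-STAM-nonINS were Lig1 (DNA ligase, log2 fold change 0.50), Dut (dUTPase, 0.58), Dscc1 (cohesion loading at forks, 0.99) and Fen1 (flap endonuclease, 0.47). Without ieIRKO-STAM-INS replicates 2 and 3, 3 of the 6 were called, Orc1 and Lig1 among them. Between the genotypes, as among the S phase members, 31 of the 38 lay above 0, with a median of 0.14.

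Of 50 other mitosis genes, 3 rose with insulin (6.00%, beside 3.73% of all genes), 0 passed between the genotypes (0 at an unadjusted p under 0.05, and 0 with DESeq2) and 2 rose between ieIRKO-STAM-INS and Control-STAM-nonINS (4.00%, beside 5.74%). Spc24, of the kinetochore, was at 8.27 to 12.4 CPM without insulin, at 13.3 to 17.4 CPM with it and at 12.6 to 18.9 CPM in ieIRKO-STAM-INS. Mad2l1, of the spindle checkpoint, was at 15.1 to 18.0 CPM, 20.1 to 23.8 CPM and 18.7 to 27.1 CPM. Both were without overlap with the mice that had no insulin. In each of these comparisons they were the 2 of the 50 that lay higher in this way, beside 4.40% and 3.80% of all genes. Cdca8, of the chromosomal passenger complex, rose with insulin (log2 fold change 0.50, SE 0.15, adjusted p = 0.0368, edgeR). None of the 3 was called with insulin in fits without Control-STAM-nonINS replicate 1 or without its replicate 4. Without ieIRKO-STAM-INS replicates 2 and 3, neither Spc24 nor Mad2l1 was called in the comparison of that group with Control-STAM-nonINS.

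Of 27 regulators of G1, 4 were called with insulin (14.8%, beside 10.5% of all genes), with a median log2 fold change of -0.02 over the 27. Ccnd1 and Ccne2 rose (7.41%, beside 3.73% of all genes), and Ccnd2 and Myc fell (beside 6.76%). Without Control-STAM-nonINS replicate 1, and likewise without replicate 4, Ccnd2 and Myc were called and Ccnd1 and Ccne2 were not. Cyclin D1 (Ccnd1) was at 71.5 to 79.6 CPM without insulin, at 99.1 to 130 CPM in Control-STAM-INS and at 87.4 to 183 CPM in ieIRKO-STAM-INS, with log2 fold changes of 0.60 (SE 0.16, adjusted p = 0.0223, edgeR) and 0.73 (SE 0.16, adjusted p = 0.00604, edgeR) over the mice without insulin. Cyclin D2 (Ccnd2) went the other way, from 211 to 330 CPM without insulin to 154 to 199 CPM with it (-0.59, SE 0.12, adjusted p = 0.00445, edgeR). Cyclin E2 (Ccne2) was at 3.95 to 10.9 CPM without insulin and at 12.2 to 18.7 CPM with it, a log2 fold change of 1.21 (SE 0.30). The transcription factor Myc was at 26.3 to 49.2 CPM and 15.5 to 23.4 CPM, a log2 fold change of -0.79 (SE 0.18). In each of these 4 genes the control groups did not overlap. Of the 27, 2 lay higher in this way, beside 4.40% of all genes. Another 3 lay lower, for which the share of all genes was not computed. Between the genotypes 0 of 27 passed (3 at an unadjusted p under 0.05, and 0 with DESeq2), and between ieIRKO-STAM-INS and Control-STAM-nonINS Ccnd1 and E2f4 (log2 fold change 0.33) were higher and Ccnd2 lower (-0.39). Without ieIRKO-STAM-INS replicates 2 and 3, Ccnd1 was the 1 gene of the 27 called in that comparison. Among 7 inhibitors of cyclin-dependent kinases, 0 passed with insulin (3 at an unadjusted p under 0.05, and 1, Cdkn2a, with DESeq2) and 0 between the genotypes (1, and 0 with DESeq2). Cdkn2a was called higher in ieIRKO-STAM-INS over the mice without insulin, at a low level (0.586 to 1.89 CPM against 0.201 to 0.941 CPM, adjusted p = 0.0174, edgeR), and 0 of the 7 inhibitors were called there without those 2 mice.

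Over the 16 libraries, genes outside all lists whose log2 CPM was among the most like the mean of the mitosis members were Ccnf (cyclin F, Spearman's rho 0.93), Hmgb2 (a chromatin protein, 0.87), Gtse1 (a protein of G2 and S phase, 0.87) and Ddx11 (a DNA helicase, 0.85). These values are a description over libraries that share the same normalization.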

How the data were processed

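Total RNA of the ileal whole wall of 16 mice was prepared with a strand-specific kit and sequenced on a NovaSeq. The authors aligned the reads to GRCm38 (mm10) with CLC Genomics Workbench and deposited 1 table per mouse of read counts per gene, as whole numbers without normalization. The annotation, the use of strand and the treatment of reads with several matches are not given in the sources used here. Groups follow the labels, and all 16 libraries were used.

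Tests were run in edgeR 4.0.16 in R 4.3.3. filterByExpr (minimum count 10, minimum total 15) kept 15267 of 22872 genes that had any reads. TMM factors scaled the libraries, a robust quasi-likelihood model was fitted to the 3 groups, and p-values were adjusted by Benjamini-Hochberg over all genes tested, with a threshold of 0.05. Intervals are log2 fold changes ± 1.96 SE, with the SE derived from the F statistic of the test. They use a normal quantile and are somewhat narrower than the test itself allows. Between ieIRKO-STAM-INS and Control-STAM-nonINS, the intervals of Pcna and Ccnb2 lie above 0 though their unadjusted p in edgeR was 0.0552 and 0.0642. Single genes were checked by exact permutation of log2 CPM (prior count 2, two-sided, 210 or 924 arrangements). The depth of 13288018 to 22215382 reads limits genes of few reads, and intervals include counting error and variation among mice. The method was tested on simulated data in which the changed genes moved by more than any member did here. That test therefore does not show what the fit can detect at the smaller changes of the members. Exon lengths and positions came from a GENCODE annotation of GRCm38, which held 40704 of 41740 names.

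The 33 members, the 4 pathway lists and the 12 marker lists were chosen with earlier results of these data known, and lists were written from general knowledge. Named in full are the members with an adjusted p under 0.05, a fixed set for each role, the extremes of each class, and at most 5 pathway genes per direction and comparison. Some genes that met these rules are not reported here. Alternatives were DESeq2 1.42.0, upper-quartile normalization, other filters, a likelihood ratio test, fits to the 2 groups compared, the replicate number as a block, and leaving out libraries. Figures were drawn with matplotlib 3.10.9.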

Additional observations from a re-analysis of the deposited data

Results flagged for a closer look

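Within groups of 4 or 6 libraries, Dixon's ratio (the gap of the most extreme library to its neighbour, divided by the range) was above its 95% critical value in 6 of 105 tests of members and member sums, and chance gives about 1 in 20, or 5.25. Birc5 was low in Control-STAM-nonINS replicate 4 (25.4 CPM against 31.5 to 32.4 CPM, ratio 0.87). In Control-STAM-INS replicate 3, which held the highest level of its group for 21 of the 33 members, Birc5 (51.6 CPM against 33.3 to 37.9 CPM, ratio 0.748), Ube2c (61.3 CPM against 32.1 to 37.1 CPM, ratio 0.828) and Mcm2 (31.6 CPM against 24.6 to 27.1 CPM, ratio 0.639) were high. Mcm2 was low in Control-STAM-nonINS replicate 2 (16.7 CPM against 24.5 to 26.0 CPM, ratio 0.837), and Pcna was high in Control-STAM-nonINS replicate 3 (103 CPM against 78.1 to 82.2 CPM, ratio 0.839).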

How the results depend on the processing

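No value changed direction with its call. With insulin, 3 members were called, 2 to 4 under the alternatives other than the block, and 0 to 3 when a library was left out (0 without Control-STAM-nonINS replicate 1, and 1 without its replicate 4 or Control-STAM-INS replicate 2). Of the pathway genes 9 were called with insulin, 16 with DESeq2 and 3 to 15 when a library was left out (3 without Control-STAM-nonINS replicate 1 or 4, 5 without Control-STAM-INS replicate 4, 15 without Control-STAM-nonINS replicate 2). Between the genotypes, 0 members were called in all 8 alternatives, and 0 to 1 (Mcm6, without ieIRKO-STAM-INS replicate 6) when a library was left out. Between ieIRKO-STAM-INS and Control-STAM-nonINS, 5 members were called, 9 with DESeq2, 3 without a filter, 2 with only the 2 groups compared, and 2 without ieIRKO-STAM-INS replicates 2 and 3. Leaving out a library gave 2 (without ieIRKO-STAM-INS replicate 3) to 10 (without replicate 6), with 3 without its replicate 2 or 5 or Control-STAM-nonINS replicate 2, and 8 without its replicate 4. Of the pathway genes 12 were called there, 4 without replicates 2 and 3, 5 with only the 2 groups, and 5 to 15 when a library was left out (5 and 7 without Control-STAM-nonINS replicates 1 and 4). With only the 2 groups fewer samples entered the fit, and the cause of the other changes was not tested. Shares of all genes were not computed for the alternatives and the fits without a library. A change in these counts can therefore not be told apart from a change over all genes. The medians of both classes moved by less than 1 SD between replicates, but with insulin the S phase median ranged from 0.11 (without Control-STAM-nonINS replicate 4) to 0.26 and the mitosis median from 0.10 (without Control-STAM-INS replicate 3) to 0.23 when a library was left out, against 0.20 and 0.16. Without Control-STAM-INS replicate 2 the S phase median was 0.12. For the mice that differ in genotype and insulin, the mitosis median was 0.10, and 0.03 without ieIRKO-STAM-INS replicates 2 and 3, 0.15 without its replicate 6, and 0.17 and 0.19 without Control-STAM-nonINS replicates 1 and 2. With the replicate block Rrm2 lost its call with insulin (adjusted p = 0.0741), and Ccne1 its call between ieIRKO-STAM-INS and the mice without insulin (0.0914).

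Replicate numbers recur between the groups, but the labels tie them to no litter or day. Deviations of same-numbered libraries correlated between -0.09 and 0.18, over 0.1 in 4 of 14 pairs, and the best match was the same number in 8 of 28 cases, so the numbers were not taken to pair the mice. With the replicate block, 5 members were called with insulin (Ccna2, Aurka, Plk1, Mcm4 and Mcm5) and 8 between ieIRKO-STAM-INS and Control-STAM-nonINS.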
